A study of Mus musculus with 4 samples.

Results

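POU factors are transcription factors that share a bipartite DNA-binding region, a POU-specific domain joined by a linker to a POU homeodomain, and that bind variants of the octamer motif. Members of this family were followed here by their gene symbol in the deposited expression table, namely the class III genes *Pou3f1* (OCT6), *Pou3f2* (BRN2), *Pou3f3* (BRN1) and *Pou3f4* (BRN4), together with *Pou2f1* (OCT1) and *Pou6f1* (BRN5). All 6 members were found among the 24421 genes of the table, which lists 15 POU genes in all. The class III factors are known from neural progenitors and young neurons, where they often act beside SOX proteins, whereas OCT1 is made in most cell types.

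RNA-seq was performed on GFP+ cells sorted from mouse neural tubes at E11.5. The controls were *Prdm13* GFP/+ embryos and the mutants were *Prdm13* GFP/GFP embryos, on a mixed ICR and C57Bl/6 background, and every embryo carried at least 1 *Prdm13* allele in which GFP and a stop inserted into exon 1 prevent production of PRDM13, a repressor of the dorsal neural tube that acts downstream of PTF1A. RNA of several embryos was combined into 1 pool per genotype and each pool gave 2 libraries, so the p-values below measure the spread between libraries of a pool and not the spread between embryos. Values are RPKM, which scales the reads of a gene by its length and by the size of the library, and a library held 11659548 to 18546116 reads as recovered from the table. GFP follows the *Prdm13* locus, so the sort took cells of any class that uses it, and in such bulk RNA fewer cells that express a gene cannot be told apart from less RNA per cell.

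*Prdm13* itself was read at 114 and 127 RPKM in the GFP/+ libraries and at 309.5 and 324 RPKM in the GFP/GFP libraries. Its transcripts include those of the disrupted allele, so they do not measure PRDM13 protein. All 6 progenitor markers and all 6 neuron markers examined were among the genes tested. The 5 motor neuron, 4 erythroid and 4 endothelial markers were each under 1 RPKM in every library, with the globin genes *Hba-a1* and *Hbb-bt* at 0, and the 5 mesenchymal markers summed to 2.14 to 3.41 RPKM. Of 7 markers of dorsal root ganglion and neural crest, 4 were under 1 RPKM in every library, with the list summing to 15.5 and 18.3 RPKM in GFP/+ and to 14.9 and 16.0 RPKM in GFP/GFP.

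The class III genes are intronless paralogs, and a stretch of coding sequence is shown because it tells both how close they are and how far reads can be assigned to each. In the annotated GENCODE vM21 transcripts on GRCm38, 120 coding bases of *Pou3f2* were chosen by their in-frame match to the other class III genes. The stretch taken was the one whose poorest match among those genes was highest. The matched bases lie in the part that encodes the POU-specific domain. They are at chr4:124658511-124658630 on the plus strand for *Pou3f1*, at chr4:22487151-22487270 on the minus strand for *Pou3f2*, at chr1:42698148-42698267 on the plus strand for *Pou3f3* and at chrX:110815092-110815211 on the plus strand for *Pou3f4*. They are written 5′ to 3′ on the coding strand, and capitals mark the positions at which the 4 genes are not all the same.
Pou3f1: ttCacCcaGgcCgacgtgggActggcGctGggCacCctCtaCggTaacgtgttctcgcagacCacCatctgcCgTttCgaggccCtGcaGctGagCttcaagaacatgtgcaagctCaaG
Pou3f2: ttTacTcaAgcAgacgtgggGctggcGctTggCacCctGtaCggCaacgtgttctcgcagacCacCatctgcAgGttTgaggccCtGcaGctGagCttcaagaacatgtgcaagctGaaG
Pou3f3: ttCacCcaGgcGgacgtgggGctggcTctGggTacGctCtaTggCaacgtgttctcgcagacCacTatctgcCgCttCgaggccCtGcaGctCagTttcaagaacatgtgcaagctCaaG
Pou3f4: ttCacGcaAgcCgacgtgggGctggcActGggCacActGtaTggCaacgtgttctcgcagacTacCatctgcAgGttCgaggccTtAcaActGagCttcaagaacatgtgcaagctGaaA
Of the 120 positions, 96 were the same in all 4 genes, and 22 of the 24 others were last positions of codons. Identity in this stretch ran from 85.0% between *Pou3f3* and *Pou3f4* to 90.8% between *Pou3f1* and *Pou3f3*. At their best ungapped match to the *Pou3f2* stretch, *Pou2f1* shared 70.0 to 73.3% and *Pou6f1* 52.5 to 53.3% with the class III genes. The longest run of identical bases between any pair of class III transcripts was 38 bases, between *Pou3f1* and *Pou3f2*. The read length is not given in the sources used here, so how many reads fall wholly inside such runs is not known.

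The POU members moved apart between the genotypes. *Pou3f1* was 2.94-fold higher in the mutants, *Pou3f2* was slightly higher, *Pou3f4* was lower, and *Pou3f3*, *Pou2f1* and *Pou6f1* did not pass the test. At an adjusted p under 0.05 (limma on log2(RPKM + 0.1), Benjamini-Hochberg over 12046 genes), 2 of the 6 members rose, where 9.76% of all genes tested did, and 1 fell, where 9.95% of all genes tested did. With a fold of at least 1.5 also required, 1 member was called higher and none lower in limma (1 lower with voom on recovered reads), against 3.65% and 2.67% of all genes tested. The libraries of the genotypes did not overlap for 5 of the 6 members, a separation that 62.1% of the genes tested also showed. The median difference was 0.09 on the log2 scale over the 6 members and 0.01 over all genes tested.

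**Figure D1:**
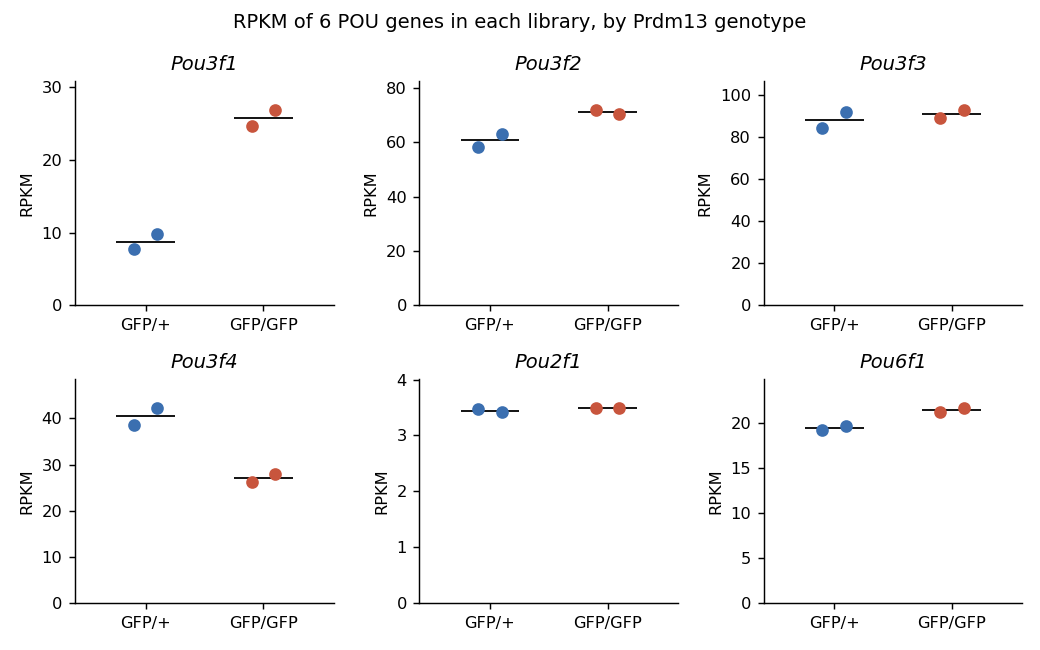
RPKM of each POU gene in the 4 libraries, with 1 point per library, a bar at the mean of the 2 libraries of a genotype and a linear axis from 0 in each panel. *Pou3f1* points of GFP/GFP lie at 24.6 and 26.8 against 7.75 and 9.75 in GFP/+, *Pou3f4* points run the other way, and the points of *Pou3f3* interleave.

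*Pou3f1* encodes OCT6, also called SCIP or TST1, known for its role in the timing of myelination by Schwann cells and expressed earlier in the embryonic nervous system. Its gene lies at chr4:124657646-124660655 in RefSeq on GRCm38 and consists of a single exon. It was read at 7.75 and 9.75 RPKM in the GFP/+ libraries and at 24.6 and 26.8 RPKM in the GFP/GFP libraries. Both mutant libraries were well above both control libraries, and the gap between genotypes exceeded the gap between libraries of a genotype, which was 0.33 on the log2 scale in GFP/+ and 0.12 in GFP/GFP. The difference was 1.55 ± 0.11 (SE, log2, n = 2 libraries each; 95% interval 1.29 to 1.82; limma adjusted p = 0.000322). The values correspond to 270 and 538 reads in GFP/+ and to 1204 and 1104 reads in GFP/GFP at a gene length of 3010 bases, and to 135, 269, 602 and 552 reads if the length was 1505 bases, which the values also allow. Among all genes of the table ranked by mean RPKM, *Pou3f1* stood at place 7361 in GFP/+ and at place 3392 in GFP/GFP.

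*Pou3f2* encodes BRN2, a factor of neural progenitors and of upper-layer cortical neurons. The gene, at chr4:22482095-22488366 on the minus strand, was read at 58.3 and 63.0 RPKM in GFP/+ and at 71.7 and 70.3 RPKM in GFP/GFP, from 4234 to 7316 reads. The mutant libraries were both above the control libraries, by a smaller margin than for *Pou3f1*. The mean was 1.17-fold higher, a difference of 0.23 ± 0.05 (SE, log2, n = 2; 95% interval 0.10 to 0.36; limma adjusted p = 0.0302). This rise, which was under the 1.5-fold threshold, did not pass the test in every fit. The adjusted p was 0.137 without GFP/+ library 1, 0.144 without GFP/GFP library 1, 0.145 without GFP/GFP library 2, 0.0557 after quantile normalization and 0.0959 without the variance trend in limma.

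*Pou3f3* encodes BRN1, which overlaps in function with BRN2 in the production and migration of cortical neurons and has a further role in the kidney. It was the most abundant member in both genotypes, at 84.4 and 92.2 RPKM in GFP/+ and at 89.3 and 92.9 RPKM in GFP/GFP. The libraries of the genotypes interleaved. The difference was 0.05 ± 0.06 (SE, log2, n = 2; 95% interval -0.09 to 0.18; limma adjusted p = 0.609). A rise of the size seen for *Pou3f2* lay outside this interval, while changes inside it could not be told from none. The interval measures the spread between libraries of a pool. The sign was negative after quantile normalization and without GFP/+ library 1, at -0.0013 and -0.017.

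*Pou3f4* encodes BRN4, an X-linked factor required for the development of the inner ear and expressed along the embryonic neural tube. The gene, at chrX:110814379-110819108, was read at 38.6 and 42.3 RPKM in GFP/+ and at 26.1 and 27.9 RPKM in GFP/GFP. Both mutant libraries lay below both control libraries. The mean in the mutants was 0.668 times that in the controls, a difference of -0.580 ± 0.065 (SE, log2, n = 2; 95% interval -0.74 to -0.42; limma adjusted p = 0.00205). This falls just short of the 1.5-fold threshold of 0.585, which was passed after median ratio scaling (-0.585), after quantile normalization (-0.61), with voom on recovered reads (-0.59), without GFP/+ library 1 (-0.65) and without GFP/GFP library 2 (-0.63). The adjusted p stayed under 0.05 in all 13 alternative fits, at most 0.0309.

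The pools differed in X-linked and Y-linked transcripts, which stand beside *Pou3f4* because of its place on the X. *Xist*, the RNA of the inactive X chromosome of females, was read at 22.4 and 21.6 RPKM in GFP/+ and at 6.55 and 6.03 RPKM in GFP/GFP, a difference of -1.79 on the log2 scale (limma adjusted p = 2.03e-05). *Eif2s3y* on the Y was at 19.1 and 17.8 RPKM in GFP/+ and at 27.8 and 28.1 RPKM in GFP/GFP, the largest difference of 4 Y-linked genes examined (0.60, limma adjusted p = 0.00114). *Kdm5d* was higher by 0.45 (limma adjusted p = 0.00496), while *Ddx3y* at 0.14 and *Uty* at 0.20 did not pass the test (limma adjusted p of 0.176 and 0.215). These genes were chosen after their values were seen. Over the 426 X-linked genes tested the median difference was -0.03, against 0.01 over 11597 autosomal genes, and 22 of the 426 had a value below that of *Pou3f4*, as did 402 of the 11597. The part of the sex of the embryos in the *Pou3f4* difference, or in that of any other X-linked gene named here, was not tested.

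*Pou2f1* and *Pou6f1* lie outside class III. *Pou2f1* encodes OCT1, which acts at octamer sites of histone and small nuclear RNA genes, and was the lowest of the 6 members at 3.47 and 3.41 RPKM in GFP/+ and 3.49 and 3.49 RPKM in GFP/GFP, from 527 to 821 reads. Its difference was 0.02 ± 0.09 (SE, log2, n = 2; 95% interval -0.20 to 0.24; limma adjusted p = 0.904). *Pou6f1*, which encodes BRN5, a factor of brain and other tissues, was read at 19.2 and 19.7 RPKM in GFP/+ and at 21.2 and 21.7 RPKM in GFP/GFP. Both mutant values were above both control values, at 0.14 ± 0.05 (SE, log2, n = 2; 95% interval 0.01 to 0.26), and the adjusted p of 0.119 from limma missed the threshold. The gene models lie at chr1:165865150-166002749 for *Pou2f1* and at chr15:100575318-100600061 for *Pou6f1*.

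**Figure D2:**
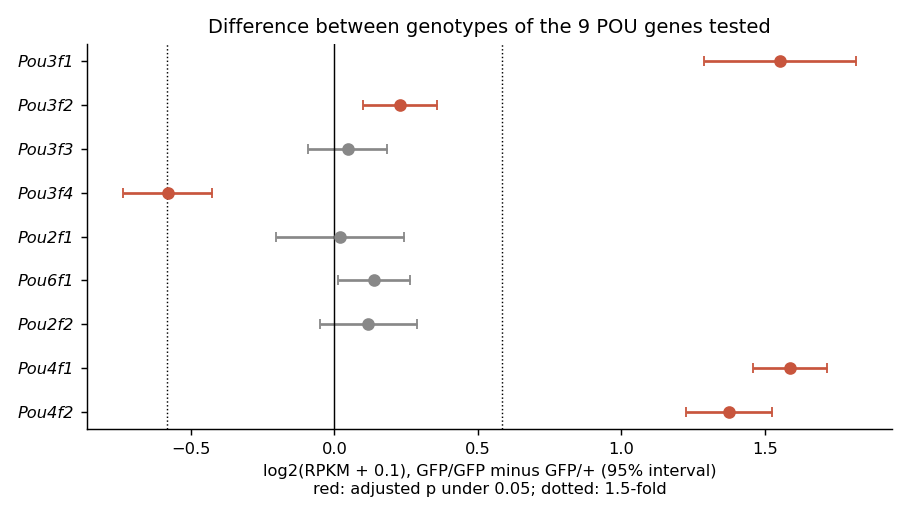
Difference between the genotypes in log2(RPKM + 0.1) for the 6 members and the 3 other POU genes that passed the filter, with points at the limma estimate and lines for the 95% interval. *Pou4f1*, *Pou3f1* and *Pou4f2* lie right of the dotted 1.5-fold line at 1.59, 1.55 and 1.37, and *Pou3f4* at -0.58 is the only POU gene with an interval wholly below 0.

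The order of the levels per length differed between the genotypes in 1 place. In GFP/+ the means ran *Pou3f3* (88.3 RPKM), *Pou3f2* (60.7 RPKM), *Pou3f4* (40.4 RPKM), *Pou6f1* (19.5 RPKM), *Pou3f1* (8.75 RPKM) and *Pou2f1* (3.44 RPKM), with no overlap between neighbours. In GFP/GFP *Pou3f1* (25.7 RPKM) stood between *Pou3f4* (27.0 RPKM) and *Pou6f1* (21.4 RPKM). The *Pou3f1* and *Pou3f4* libraries of the mutants overlapped, so that their order there was within the spread. RPKM rests on the gene model, and whole reads came out for *Pou3f4* at a length of 1086 bases, equal to its coding length, and for *Pou3f3* at 3064 bases, shorter than the 4443 bases of the present RefSeq model. Reads from untranslated parts outside such models were not in the values.

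The summed class III level was slightly higher in the mutant libraries, and its makeup differed. The sum was 189 and 207 RPKM in GFP/+ and 212 and 218 RPKM in GFP/GFP, a difference of 16.7 RPKM beside a spread of 12.9 RPKM (SD, n = 2) in GFP/+ and 4.39 RPKM in GFP/GFP. It was 7.61 RPKM without GFP/+ library 1, 25.8 RPKM without GFP/+ library 2 and 10.96 RPKM after quantile normalization. *Pou3f1* supplied 4.10 and 4.71% of the sum in GFP/+ and 11.6 and 12.3% in GFP/GFP, whereas *Pou3f4* supplied 20.4 and 20.4% in GFP/+ and 12.3 and 12.8% in GFP/GFP. *Pou3f3* supplied 44.6 and 44.5% against 42.2 and 42.6%, and *Pou3f2* 30.9 and 30.4% against 33.9 and 32.3%. In the sum and in each share the genotypes did not overlap, a separation that 62.1% of the genes tested also showed singly. The shares are parts of 1 whole, so they are not independent of each other. With 2 libraries against 2, the exact two-sided permutation test gave p = 0.333 for the sum and for each of the 4 shares, the smallest p that this design allows, so none could reach 0.05.

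**Figure D3:**
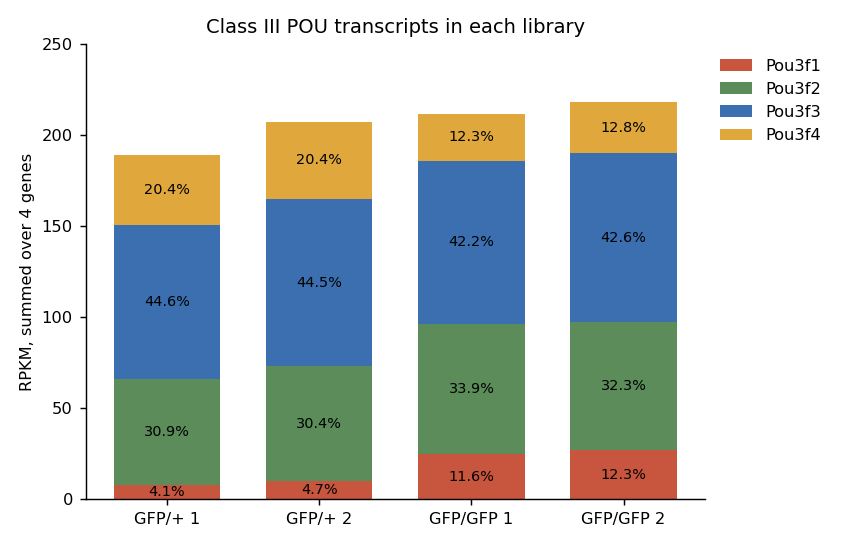
RPKM of the 4 class III genes stacked for each library on an axis from 0, with the percent of the sum that each gene supplies written in its segment. The *Pou3f1* segment grows from 4.10 and 4.71% in GFP/+ to 11.6 and 12.3% in GFP/GFP while the *Pou3f4* segment shrinks from 20.4 to 12.3 and 12.8%.

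Ratios of paralogs inside a library do not depend on the scaling of libraries. The log2 ratio of *Pou3f1* to *Pou3f4* was -2.30 and -2.10 in GFP/+ and -0.09 and -0.06 in GFP/GFP, a shift of 2.13, the largest of the 6 pairs. The ratio of *Pou3f3* to *Pou3f4* was 1.13 and 1.12 in GFP/+ and 1.77 and 1.73 in GFP/GFP, a shift of 0.63. The libraries of a genotype thus differed far less than the genotypes did for either pair. The smallest shift, 0.18, was that of *Pou3f2* to *Pou3f3*, at -0.53 and -0.55 against -0.31 and -0.40. The other shifts were 1.51 for *Pou3f1* to *Pou3f3*, 1.32 for *Pou3f1* to *Pou3f2* and 0.81 for *Pou3f2* to *Pou3f4*. All 6 pairs separated the genotypes without overlap, where 62.1% of the genes tested did so singly. The 6 ratios are built from the same 4 genes, so they are not independent of each other. Each had an exact permutation p of 0.333, also 0.333 after adjustment over the 6.

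Of the 9 other POU genes of the table, 3 passed the filter and 2 of these were called higher, where 3.65% of all genes tested were. *Pou4f1*, which encodes BRN3A of sensory neurons and several dorsal interneuron classes, was at 16.9 and 18.1 RPKM in GFP/+ and at 52.9 and 52.7 RPKM in GFP/GFP, a difference of 1.59 (limma adjusted p = 1.51e-05). *Pou4f2*, which encodes BRN3B of retinal ganglion cells and related neurons, was at 5.43 and 5.28 RPKM in GFP/+ and at 14.1 and 14.0 RPKM in GFP/GFP, a difference of 1.37 (limma adjusted p = 4.07e-05). Both class IV genes and *Pou3f1* thus stood at 2.62 to 3.01 times their control means. *Pou2f2*, which encodes OCT2 of B cells and neurons, was at 18.6 and 19.9 RPKM against 19.8 and 22.0 RPKM, with overlapping libraries and a limma adjusted p of 0.289. The other POU genes were too low to be tested. *Pou1f1* had no read, *Pou2f3* and *Pou5f2* had 1 read in all, *Pou4f3* had at most 6 reads and *Pou5f1* at most 3 reads in a library, all under 0.2 RPKM.

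Genes that lie next to the members in RefSeq on GRCm38, taken as the nearest with a value in the table on each side, did not pass the test apart from *Pantr1*. Beside *Pou3f3*, the long noncoding RNA *Pantr1*, 0.9 kb upstream, was at 150 and 131 RPKM in GFP/+ and at 171 and 164 RPKM in GFP/GFP, a difference of 0.26 (limma adjusted p = 0.0447) that was past the threshold in 7 of the 13 alternative fits. On the other side *2900092D14Rik*, 0.1 kb away, was at 17.3 and 17.4 RPKM against 20.2 and 17.8 RPKM (limma adjusted p = 0.254). That RNA lies in a stretch that GENCODE counts to the *Pou3f3* transcript, whose end there is 42703176 against 42700210 in RefSeq, and without a stated strand setting reads of overlapping genes cannot be told apart. *Pantr2*, a further noncoding RNA of the region named after its values were seen, was at 6.56 and 7.46 RPKM against 7.87 and 9.04 RPKM (limma adjusted p = 0.109).

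Beside *Pou3f2*, the noncoding RNA *Pnky*, 2.2 kb away and known from neural stem cells, was at 4.50 and 4.23 RPKM in GFP/+ and at 4.99 and 4.43 RPKM in GFP/GFP, and *Fbxl4*, 48.0 kb away on the other side, was at 2.93 and 2.54 RPKM against 2.80 and 2.85 RPKM. Neither differed past the test, with limma adjusted p of 0.483 and 0.818. Beside *Pou3f1*, *Utp11l*, a gene of ribosomal RNA processing 17.6 kb away, was at 33.5 and 32.0 RPKM against 36.1 and 33.8 RPKM (log2 difference 0.09, limma adjusted p = 0.298), and *4933407E24Rik*, 82.1 kb away, was listed at 0 in every library. The nearest genes of *Pou3f4*, *Gm7134* and *Cylc1*, lie 439.2 and 291.3 kb away and were listed at 0. Around *Pou6f1*, *Tfcp2* gave a limma adjusted p of 0.921 and *C330013E15Rik* was under 0.6 RPKM. Around *Pou2f1*, *Creg1* gave 0.0842, and *Dusp27* and the overlapping *Cd247* were under 0.2 RPKM.

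Partners and proposed targets of the class III factors in neural cells were read from a list of 13 genes, of which 12 were tested. Of these, 4 rose and 3 fell at an adjusted p under 0.05, where 9.76% and 9.95% of all genes tested did. Of the 3, 1 also passed the fold threshold, as did 2.67% of all genes tested. The median difference was 0.02, beside 0.01 over all genes tested. *Sox1*, a SOXB1 factor of neural progenitors, fell from 14.0 and 15.2 RPKM in GFP/+ to 9.02 and 9.05 RPKM in GFP/GFP, a difference of -0.68 (limma adjusted p = 0.00118). Its relative *Sox2*, which binds DNA beside BRN2 in neural progenitors, fell from 150 and 163 RPKM to 111 and 113 RPKM, at -0.48 (limma adjusted p = 0.00214). The remaining SOXB1 gene, *Sox3*, was the highest of the list at 0.54, from 58.1 and 67.1 RPKM to 87.2 and 94.8 RPKM (limma adjusted p = 0.00556). The SOXB1 genes thus moved in both directions, the *Sox3* difference missing the test in 1 of the 13 alternative fits, without GFP/GFP library 2 (adjusted p = 0.0788).

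*Dll1*, a Notch ligand gene with a BRN2 site, was at 96.2 and 102 RPKM against 97.1 and 104 RPKM, with overlapping libraries. Targets known from other neural stages, the intermediate filament gene *Nes* and the fatty acid binding protein gene *Fabp7*, were at 0.10 and -0.07 and did not pass the test. *Sox11* (0.23), *Cdk5r1* (0.22), an activator of the kinase CDK5, and *Pqbp1* (0.19), a BRN2-binding protein, were the others that rose. The number that rose was between 0 and 1 in the 4 fits that left out a library and 1 after quantile normalization or without the variance trend, while the number that fell was 2 in each of the 4, and *Sox1* and *Sox2* stayed below an adjusted p of 0.05 in all 13 alternative fits.

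**Figure D4:**
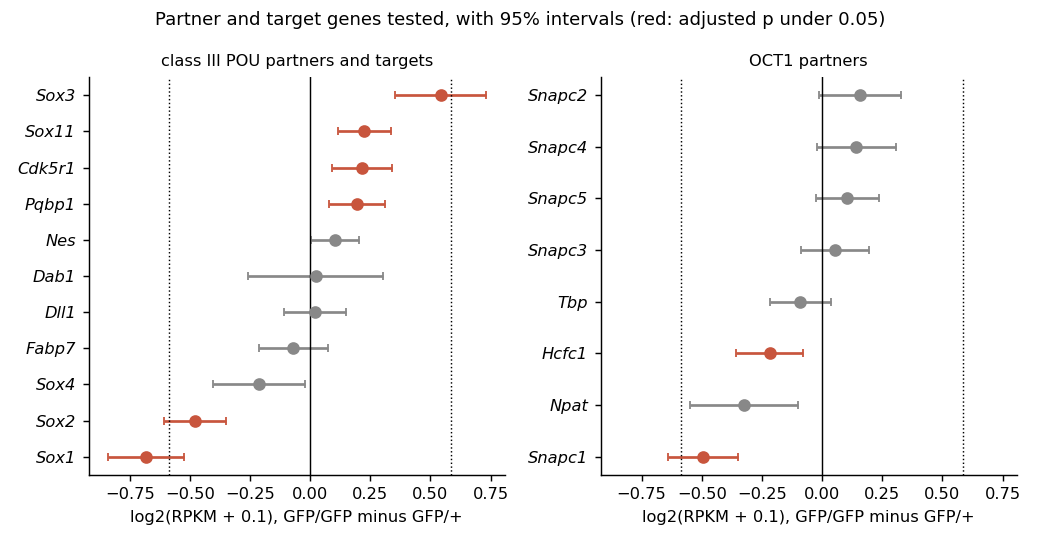
Difference between the genotypes in log2(RPKM + 0.1), with 95% intervals, for 11 tested genes of the class III list at left and the 8 tested genes of the OCT1 list at right, with dotted lines at 1.5-fold. *Sox1* at -0.68 is the only point past a dotted line, and *Snapc1* at -0.50 is the lowest of the OCT1 list.

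Partners of OCT1 at octamer promoters were 9 genes, of which 8 were tested. None rose and 2 fell in limma, neither by 1.5-fold (at an unadjusted p under 0.05, 0 and 3, and with voom on recovered reads 0 and 3), with a median difference of -0.02 over the 8. Of all genes tested, 9.76% rose and 9.95% fell in limma. *Snapc1*, a subunit of the complex that opens small nuclear RNA promoters, fell from 12.2 and 11.8 RPKM to 8.54 and 8.39 RPKM, at -0.50 (limma adjusted p = 0.00305). The other 4 subunits of this complex, *Snapc2* to *Snapc5*, lay between 0.05 and 0.16 and did not pass the test. *Hcfc1*, a coactivator bound through the OCT1 complex, fell by 0.22 on the log2 scale (limma adjusted p = 0.0427). *Pou2af1*, the B cell coactivator of OCT1 and OCT2, had 1 read in all. Without GFP/GFP library 2 neither fall passed the test, at an adjusted p of 0.0513 for *Snapc1*, its only loss in the 13 alternative fits. *Hcfc1* missed the test in 5 of the 13, those without GFP/+ library 2 and without either GFP/GFP library, the fit with no filter on RPKM and the fit without the variance trend, with an adjusted p of up to 0.178.

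The genes most like each member over the 4 libraries were taken as the 2 with the smallest root mean square difference of centred log2 values among the genes tested. For *Pou3f1* these were *Ly6h*, a neuronal membrane protein gene, at 17.5 and 23.1 RPKM in GFP/+ and 54.8 and 61.0 RPKM in GFP/GFP (distance 0.032), and *Sox8*, a SOXE factor of crest and glia, at 2.62 and 3.13 RPKM against 9.04 and 9.48 RPKM (distance 0.064). For *Pou3f4* they were *Dusp4*, a phosphatase of MAP kinases, at 75.4 and 82.95 RPKM against 52.3 and 55.3 RPKM (distance 0.014), and *Sall3*, a zinc finger factor, at 24.6 and 27.3 RPKM against 16.5 and 17.5 RPKM (distance 0.015). These genes were picked for their likeness over only 4 libraries, so the shared direction and spread between libraries follow from the choice. The nearest genes were *Lpar2* and *Nop10* for *Pou3f2*, *Pnpla6* and *Tmed9* for *Pou3f3*, *Tspyl3* and *Ndufb4* for *Pou2f1*, and *Pik3r1* and *Pfdn6* for *Pou6f1*, at distances of 0.0037 to 0.0098.

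The lists that describe the makeup of the sorted cells also moved with the genotype. Beside the counts below, 9.76% of all genes tested rose and 9.95% fell. Of the 6 neuron markers 4 rose and none fell in limma (1, *Map2*, was lower at an unadjusted p under 0.05), led by *Stmn2*, a tubulin-binding protein of growing axons, at 0.61, and the list summed to 1627 and 1673 RPKM in GFP/+ and to 1994 and 2075 RPKM in GFP/GFP. Of the 6 progenitor markers 3 rose and 1, *Sox2*, fell, with sums of 1418 and 1461 RPKM against 1469 and 1538 RPKM. Of the 6 dorsal neural tube markers 1, *Ptf1a*, rose, at 1.81, and 4 fell, with *Gsx1* lowest at -1.18. Of the 3 crest and ganglion markers tested, *Foxd3* fell by 1.41 on the log2 scale, while *Sox10* was under 1 RPKM throughout. The part of these lists in the differences of the POU genes was not tested.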

How the data were processed

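RNA-seq of 4 libraries was analysed, 2 from each of 2 pools. Genotypes and replicate numbers were taken from the submitters' labels. Per the submitters' processing notes and the study's methods, the authors used TopHat2 2.1.0 for alignment to mm10, featureCounts for reads in RefSeq exons and TMM of edgeR 3.6.8 for normalization, and deposited RPKM. The RPKM were used as deposited. The 12046 genes whose mean reached 1 RPKM in a genotype entered a linear model of log2(RPKM + 0.1) in limma 3.58.1 (R 4.3.3; lmFit, then eBayes using a variance trend), and two-sided p-values were adjusted over all of them by Benjamini-Hochberg. Fold changes of low genes are understated on this scale. A gene rose or fell at an adjusted p under 0.05 and was called at a fold of at least 1.5 as well.

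Whole reads were recovered from the RPKM by solving for each gene's length and each library's size, and came out within 0.005 reads for 99.98% of the 19200 genes above 0. Any multiple of a solved length is also possible. On simulated libraries the test called 187 of 199 genes changed by at least 2-fold in either direction. It also called 26 unchanged ones among 11900, of which 22 had under 20 reads. Smaller changes were not simulated. Named genes were the members, the other POU genes, *Prdm13*, called list genes with each list's highest and lowest, neighbours, and the 2 most like genes per member, and others are given where they passed the test in a list. The members and lists were chosen with earlier results of these data known. Values of a few genes of the lists are not reported here. Replicate numbers did not pair the libraries. Alternatives were other pseudocounts, filters, scalings, a block, single libraries left out and voom. Coordinates are RefSeq on GRCm38 and sequences GENCODE vM21. Python 3.11.15, numpy 2.4.6, pandas 2.3.3, scipy 1.17.1 and matplotlib 3.10.9 were used.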

Additional observations from a re-analysis of the deposited data

How the results depend on the processing

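The direction and the call of *Pou3f1* held in all 13 alternative fits (1.39 to 1.72 on the log2 scale), and the adjusted p of *Pou3f4* stayed under 0.05 in all 13 (-0.65 to -0.52). The number of members that rose at an adjusted p under 0.05 was 2 and became 1 after quantile normalization, where *Pou3f2* was at 0.19, and without the variance trend, where it was at 0.23, and it ranged from 1 to 2 when 1 library was left out, with *Pou3f2* between 0.17 and 0.28. The number of members called lower was 0 and became 1 with median ratio scaling, quantile normalization and voom, and ranged from 0 to 1 when 1 library was left out. *Pou3f3* changed sign after quantile normalization (-0.0013) and ranged from -0.017 to 0.11 when 1 library was left out. The causes were not tested. The difference of the class III sum ranged from 7.61 to 25.8 RPKM when 1 library was left out. Over all genes, 440 were called higher and 322 lower, against 258 and 212 without GFP/GFP library 2.

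Same-numbered libraries did not deviate together (correlation 0.047 over genes for the only independent pair), so the replicate number was not taken as a pairing. With the replicate number as a block, 2 members rose and 1 fell, 1 was called higher and 0 lower, and the log2 differences were unchanged by construction (1.55 for *Pou3f1*, -0.58 for *Pou3f4*), with no call of a member changed. Each genotype was 1 pool, so differences between embryos have no error here, and the smallest p of any exact test over libraries was 0.333.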
